A study of Mus musculus with 6 samples.

Results

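Aldehyde dehydrogenases, alcohol dehydrogenases and aldo-keto reductases make up the 44 genes described here, out of 19938 genes measured. They were chosen by symbol alone: a name that starts with Aldh and a number, with Akr1 or Akr7 and a letter, or with Adh followed by a number or by the code of the iron-dependent branch (Adhfe1). By this rule there were 21 Aldh genes, 8 Adh genes, 14 Akr1 genes and 1 Akr7 gene, Akr7a5, and the pseudogene Adh6-ps1 and the distant relative Akr1cl were among them. Each gene was read from its brightest probe set that carries a single gene symbol. Only Aldh3b3 and Adh6b had other such probe sets.

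NME cells are mouse mammary gland epithelial cells (the NMuMG line) transformed by overexpression of the epidermal growth factor receptor, EGFR. AGR cells descend from 1 colony of NME cells that grew in 3D culture on a basement membrane extract in the presence of the EGFR inhibitor AG1478 at 1 µM, and that was picked and expanded in ordinary 2D culture. Total RNA of both lines, grown in the same insulin-containing medium, was hybridised to Affymetrix Mouse Gene 1.0 ST arrays, 3 for NME and 3 for AGR. Both lines carry the EGFR transgene, and by the study's methods resistant lines, once established, were kept without the drug. Since AGR is a single colony, a property of that clone and a property of resistant cells cannot be told apart.

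These enzymes handle reactive carbonyl compounds and alcohols with a nicotinamide cofactor. Alcohol dehydrogenases oxidise alcohols such as ethanol and retinol to aldehydes, aldehyde dehydrogenases oxidise aldehydes onward to acids, and aldo-keto reductases mostly run the other way and reduce aldehydes and ketones, steroids and prostaglandins among them, to alcohols. In tumour cells aldehyde dehydrogenase activity is widely used as a marker of stem-like cells, and several members of the family are induced by the stress-response factor NRF2.

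Values are log2 of the deposited array intensity, for which no detection call was used here. The median intensity of the 6 arrays lay between 190.4 and 200.8, the log2 values of 2 arrays of the same line correlated across probe sets at 0.9953 to 0.997, and those of an NME and an AGR array at 0.9862 to 0.9878. Probe sets are not compared with each other in level, but a gene with a mean under 7.61, the median over all probe sets, is called dim, and 18 of the 44 genes were dim in both lines. The mammary epithelial markers Krt8, Krt18, Krt7, Cdh1 and Cldn4 lay above that median in both lines, and Krt5, Krt14, Epcam, Elf5 and Esr1 below it. Hepatocyte markers were also measured in these cells, with 10 of 13 above the median in NME and 5 in AGR. A gene was called changed where the limma test of AGR against NME, fitted across all genes, gave an adjusted p under 0.05. The labels do not say whether the arrays came from separate cultures, and the p-values therefore reflect array-to-array spread, which may be technical.

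Of the 44 genes, 14 passed the test, 3 higher and 11 lower in AGR. That is 31.8%, beside 24.2% of all genes (12.6% higher and 11.6% lower). Among the 26 genes that were above the probe set median in at least 1 line, 13 passed, beside 37.7% of all genes above it. Of these 13, 3 were higher and 10 lower in AGR, beside 2368 higher and 2114 lower of the 11904 genes above that median. No set test was run, so these shares and the tilt toward lower values in AGR are given as counts only. With a fold change above 2 as a further condition, Akr1c18 was higher and Akr1c19 and Akr1c14 were lower, where 3% of all genes met both conditions (1.5% in each direction, and 4.85% of the genes above the probe set median). The median log2 fold change was -0.09 over the 44 genes and -0.02 over all genes. For 21 of the 44 genes the 3 AGR values all lay on one side of the 3 NME values, which was the case for 36.4% of all genes.

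**Figure D1:**
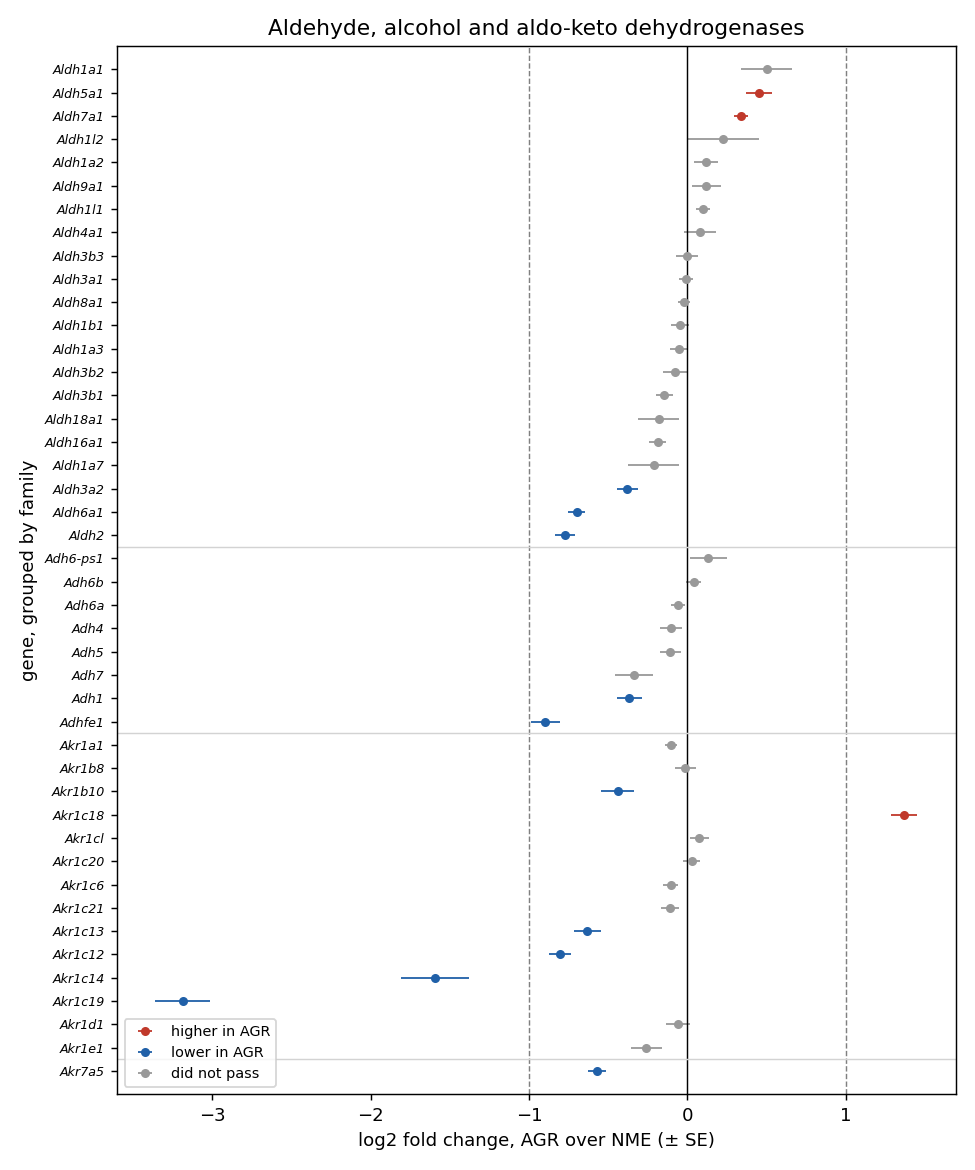
The log2 fold change of AGR over NME (horizontal axis, with its standard error) is plotted for each of the 44 genes, grouped by family from Aldh at the top through Adh and Akr1 to Akr7a5 at the bottom. Colours mark the 3 genes higher and 11 lower in AGR at an adjusted p under 0.05, and the dashed lines mark a 2-fold difference, which Akr1c19, Akr1c14 and Akr1c18 passed.

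The Akr1c genes held the 3 largest differences of the 44. Mouse Akr1c enzymes are hydroxysteroid dehydrogenases and ketone reductases, and 8 of the 9 measured here lie in a cluster on chromosome 13. In the RefSeq order Akr1c14 comes first, then Akr1c18, Akr1c13, Akr1c19 and Akr1c12, followed by Akr1c6, Akr1c20 and Akr1c21, and Akr1cl lies on chromosome 1. All 5 genes of the first block passed the test, 4 of them lower and 1 higher in AGR, while the other 4 were dim in both lines and did not pass. The sequences just upstream of these 5 genes are shown because neighbours moved in opposite directions, and because 3 of them share a repeated element. Each is the 250 bases before the gene's annotated start in RefSeq, on the gene's own strand (GRCm38.p6): Akr1c14 at chr13:4059341-4059590 (plus strand), Akr1c18 at chr13:4150647-4150896 (minus), Akr1c13 at chr13:4190937-4191186 (plus), Akr1c19 at chr13:4233490-4233739 (plus) and Akr1c12 at chr13:4279400-4279649 (minus). Capitals mark matches to the pattern TAANCATTA, in which N is any base.
Akr1c14: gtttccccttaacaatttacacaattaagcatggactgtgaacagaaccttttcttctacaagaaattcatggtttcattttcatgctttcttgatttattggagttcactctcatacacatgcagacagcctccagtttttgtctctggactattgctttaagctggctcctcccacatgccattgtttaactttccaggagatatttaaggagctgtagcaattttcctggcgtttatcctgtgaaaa
Akr1c18: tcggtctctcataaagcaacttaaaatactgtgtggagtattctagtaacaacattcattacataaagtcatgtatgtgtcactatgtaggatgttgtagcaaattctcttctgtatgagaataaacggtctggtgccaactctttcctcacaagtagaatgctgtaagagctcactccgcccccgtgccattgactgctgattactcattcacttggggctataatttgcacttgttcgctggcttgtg
Akr1c13: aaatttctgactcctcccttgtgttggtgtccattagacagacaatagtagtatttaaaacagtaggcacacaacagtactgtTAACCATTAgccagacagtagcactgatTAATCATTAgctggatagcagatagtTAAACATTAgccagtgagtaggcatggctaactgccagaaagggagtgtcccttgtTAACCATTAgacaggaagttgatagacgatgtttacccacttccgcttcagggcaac
Akr1c19: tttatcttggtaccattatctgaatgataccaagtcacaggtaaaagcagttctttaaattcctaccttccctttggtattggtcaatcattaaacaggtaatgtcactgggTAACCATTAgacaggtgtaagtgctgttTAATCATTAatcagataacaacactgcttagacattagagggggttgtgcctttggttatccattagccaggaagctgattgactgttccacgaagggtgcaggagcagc
Akr1c12: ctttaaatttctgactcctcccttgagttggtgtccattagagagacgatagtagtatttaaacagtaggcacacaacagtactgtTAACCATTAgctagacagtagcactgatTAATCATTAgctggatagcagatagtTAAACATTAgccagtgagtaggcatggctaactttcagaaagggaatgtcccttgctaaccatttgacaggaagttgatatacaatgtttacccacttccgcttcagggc

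The pattern was noticed in these sequences and then searched for on both strands, like the other letters below, so its presence here is a description. Akr1c13 held 4 matches, between 167 and 57 bases upstream of the start, Akr1c12 held 3 and Akr1c19 held 2, while Akr1c14 and Akr1c18 held 0. Over 32851 RefSeq promoters of the same length, 0.685% held at least 1 match, 14 held 2 or more, and 2 held 3 or more, which were those of Akr1c12 and Akr1c13. Those promoters were 92.5% identical in a global alignment, and the other 9 pairs among the 5 were 48.5% to 60.3% identical. The Akr1c13, Akr1c19 and Akr1c12 genes with the pattern were all lower in AGR, and so was Akr1c14 without it. Whether the pattern has a part in these differences was not tested. None of the 5 held the core of the antioxidant response element, TGACNNNGC, which 10.2% of all promoters held (Adh6a, Akr1cl, Aldh1a2 and Aldh9a1 among the 34 genes of the group with a promoter entry), nor the HNF4 core CAAAGTCCA, found in 0.384% of promoters and in 0 of those 34 genes. The TATAAA letters stood in 12.4% of promoters and in none of these 5.

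Akr1c19 reduces and oxidises a range of alcohols and ketones and had the largest difference of the 44 genes. It read 11.72, 11.48 and 11.78 on the 3 NME arrays and 8.71, 8.08 and 8.63 on the 3 AGR arrays. Every AGR array thus lay far below every NME array, and array 2 was the lowest of each line. The log2 fold change was -3.19 ± 0.17 (SE, n = 3 per line), a 9.11-fold lower value in AGR (limma adjusted p = 4.26e-05).

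Akr1c14, a 3-alpha-hydroxysteroid dehydrogenase that reduces dihydro-steroids, read 9.51, 8.87 and 9.60 in NME and 7.79, 7.46 and 7.94 in AGR. The lines did not overlap, although NME array 2 lay well below the other NME arrays. It fell by 1.60 ± 0.21 on the log2 scale, or 3.02-fold (limma adjusted p = 0.00205).

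Akr1c18 went the other way. Its enzyme is the 20-alpha-hydroxysteroid dehydrogenase that inactivates progesterone. The NME arrays gave 6.65, 6.43 and 6.60, below the median of all probe sets, and the AGR arrays gave 7.89, 7.84 and 8.06, just above it. The lines were well apart, with a spread of 0.12 (SD, n = 3) in each. The log2 fold change was 1.37 ± 0.08, 2.58-fold higher in AGR (limma adjusted p = 7.09e-05). Akr1c18 was the only one of the 9 Akr1c genes that was called higher in AGR, and its level in NME was dim.

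Akr1c12 and Akr1c13 encode closely related dehydrogenases of alicyclic alcohols and steroids. Akr1c12 read 10.84, 10.66 and 10.72 in NME and 9.97, 9.83 and 10.01 in AGR. Akr1c13 read 10.14, 9.88 and 10.05 in NME and 9.43, 9.28 and 9.48 in AGR. For both genes all AGR arrays lay below all NME arrays, and array 2 was again the lowest of each line. Akr1c12 fell by 0.80 ± 0.07 (1.75-fold, limma adjusted p = 0.00033) and Akr1c13 by 0.63 ± 0.08 (1.55-fold, adjusted p = 0.00195), both on the log2 scale. The probe sequences were not used here, so whether their probe sets read each other's transcripts was not tested.

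The remaining Akr1c genes, Akr1c6, Akr1c20, Akr1c21 and Akr1cl, had log2 fold changes between -0.11 and 0.08 from dim values. Akr1c6 did not overlap between lines (-0.11 ± 0.05) and did not pass the test (adjusted p = 0.172). Around the cluster, Net1 (0.38) and Tubal3 (0.26) before it were higher in AGR, Asb13 (-0.58) before those was lower, and Ucn3, which lies next to Akr1c14, did not pass (0.03, adjusted p = 0.871). At the far end Akr1e1 had a log2 fold change of -0.26 ± 0.10 and did not pass (adjusted p = 0.116), though it did with quantile normalization, with the replicate number as a block and without NME array 2. Within the cluster, Akr1c18 thus rose between neighbours that fell.

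**Figure D2:**
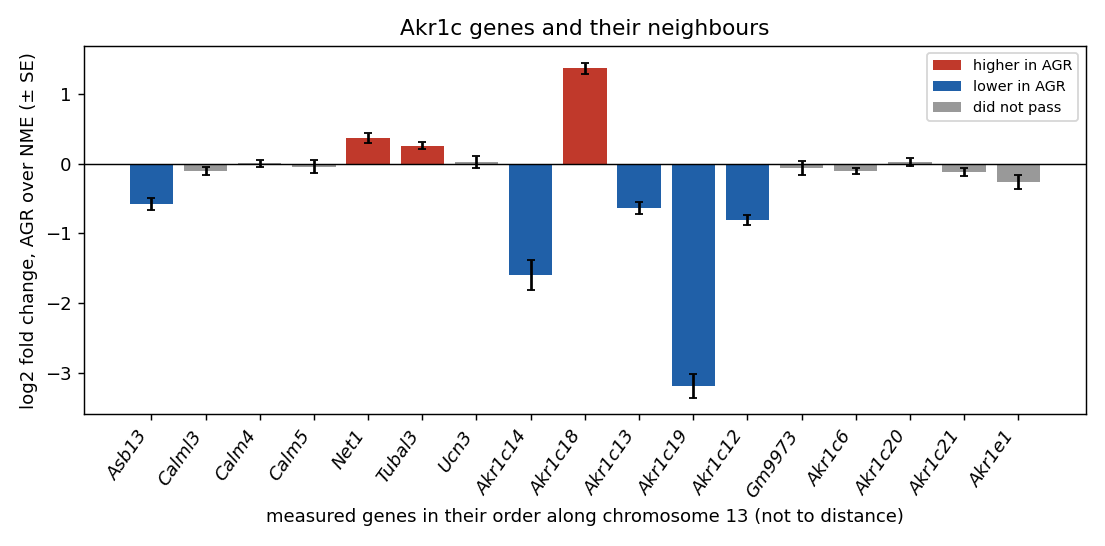
Bars give the log2 fold change of AGR over NME with its standard error for the measured genes in their order along chromosome 13, not drawn to distance. Akr1c18 (1.37) stands as a rise between Akr1c14 (-1.60) and Akr1c13 (-0.63), and the dim genes Akr1c6, Akr1c20 and Akr1c21 lie near 0.

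The other aldo-keto reductases differed less. Akr1a1, the general aldehyde reductase, read 13.16 to 13.30 over the 6 arrays, with a log2 fold change of -0.10 ± 0.04 that did not pass although the lines did not overlap (limma adjusted p = 0.121). It passed with the methods' t-test and with eBayes under trend and robust settings. Of the Akr1b genes, relatives of aldose reductase, Akr1b10 read 10.46, 10.21 and 10.37 in NME and 9.99, 9.70 and 10.03 in AGR, all below NME, and fell by 0.44 ± 0.10 on the log2 scale (adjusted p = 0.0219). Without NME array 1 or without NME array 3 that gene no longer passed. Akr1b8 had a log2 fold change of -0.01 ± 0.07 with overlapping lines. Akr1d1, the bile acid and steroid 5-beta-reductase of liver, was dim on every array (-0.06 ± 0.07).

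Akr7a5 reduces succinic semialdehyde and the dialdehyde of aflatoxin. It read 10.75, 10.73 and 10.73 in NME and 10.09, 10.27 and 10.12 in AGR. The NME arrays were nearly equal and all 3 AGR arrays were lower. It fell by 0.57 ± 0.06 on the log2 scale, 1.49-fold (limma adjusted p = 0.000611).

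Array 2 was the lowest of its line in both NME and AGR for all 9 Akr1 genes that were above the probe set median in a line: Akr1a1, Akr1b8, Akr1b10, Akr1c12, Akr1c13, Akr1c14, Akr1c18, Akr1c19 and Akr1e1. The same held for 16 of the 26 such genes of the whole group (61.5%) and for 27.9% of the 11904 genes above that median. This was noticed in the values and is given as a description. The labels name no batch, and whether the arrays numbered 2 were handled together was not tested.

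**Figure D3:**
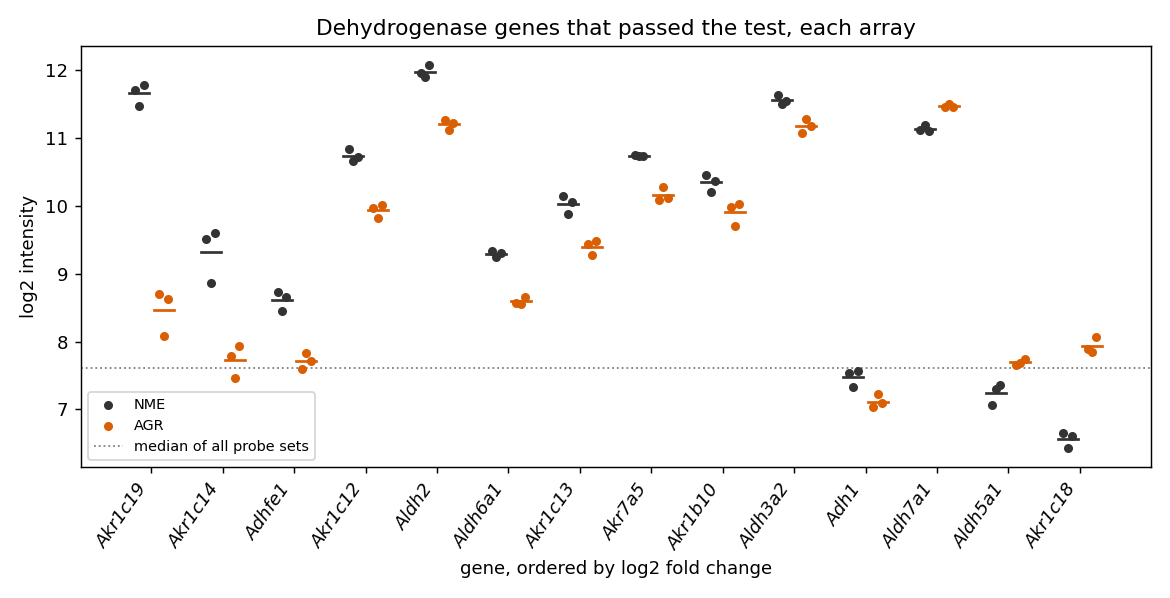
Each point is the log2 intensity of 1 array (vertical axis; NME in dark grey, AGR in orange) for the 14 genes that passed the test, with a line at each mean and a dotted line at the median of all probe sets, 7.61. NME and AGR points of the same gene do not overlap, and Akr1c19 shows the widest gap, from 11.48 at the lowest in NME to 8.71 at the highest in AGR.

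Among the 21 aldehyde dehydrogenases, 3 were lower and 2 higher in AGR, and none changed by more than 2-fold. Aldh2 is the mitochondrial enzyme that clears acetaldehyde and lipid aldehydes. It read 11.96, 11.91 and 12.08 in NME and 11.27, 11.12 and 11.22 in AGR. Arrays of the same line differed by far less than the gap between the lines. Aldh2 fell by 0.77 ± 0.06 on the log2 scale, 1.71-fold (limma adjusted p = 0.000259). Its neighbours on chromosome 5 moved the same way, Mapkapk5 by -0.42, Acad12 by -0.38 and Acad10 by -0.28 on the log2 scale. Brap beyond them did not pass (0.14, adjusted p = 0.231). This window was chosen and ends at Mapkapk5 on the other side, and genes past it were not examined here. Over all genes 11.6% were lower.

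Aldh6a1, the methylmalonate semialdehyde dehydrogenase of valine and thymine breakdown, read 9.34, 9.24 and 9.30 in NME and 8.56, 8.55 and 8.66 in AGR. The AGR arrays lay below the NME arrays by several times the spread of either line. It fell by 0.70 ± 0.05 on the log2 scale, 1.62-fold (limma adjusted p = 0.00015). Aldh3a2, the fatty aldehyde dehydrogenase, fell by 0.38 ± 0.07 (adjusted p = 0.00634).

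Both aldehyde dehydrogenases that rose act on amino acid products, as do Aldh6a1, which fell, and Aldh4a1, which did not pass. Aldh5a1, the succinic semialdehyde dehydrogenase that ends the breakdown of the transmitter GABA, read 7.06, 7.30 and 7.36 in NME and 7.65, 7.69 and 7.74 in AGR, a log2 fold change of 0.46 ± 0.08 (limma adjusted p = 0.00748) from dim values in NME. Aldh7a1, which oxidises the semialdehyde of lysine breakdown and betaine aldehyde, read 11.12, 11.19 and 11.10 in NME and 11.46, 11.51 and 11.46 in AGR (0.34 ± 0.04, adjusted p = 0.00174). For both genes every AGR array was above every NME array.

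The Aldh1a genes, which include the retinaldehyde dehydrogenases that make retinoic acid and the enzymes most often tied to the stem-cell assay, did not pass. Aldh1a1 read 12.08, 11.66 and 12.07 in NME and 12.59, 12.14 and 12.58 in AGR. The AGR arrays were all above the NME arrays, but array 2 lay about as far below the other arrays of its line as the lines lay apart. The log2 fold change of 0.50 ± 0.16 did not pass (limma adjusted p = 0.0686). This call turned on the setting, since Aldh1a1 passed without AGR array 2, with quantile normalization, with genes dim over the 6 arrays removed and with the replicate number as a block. Aldh1a7, a close copy of Aldh1a1, was dim (-0.21 ± 0.16, overlapping lines), as were Aldh1a2 (0.12 ± 0.08) and Aldh1a3 (-0.05 ± 0.05).

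The remaining 12 Aldh genes did not pass either. Of the folate enzymes that oxidise 10-formyltetrahydrofolate, the cytosolic Aldh1l1 (0.10 ± 0.04) and the mitochondrial Aldh1l2 (0.22 ± 0.23) were dim in both lines. Aldh1l2 read 7.18, 8.04 and 7.27 in AGR, with array 2 above the rest. In the proline pathway Aldh18a1, which makes the precursor of proline, had a log2 fold change of -0.18 ± 0.13, which passed without AGR array 2, and Aldh4a1, which degrades proline, 0.08 ± 0.10. Aldh9a1, which oxidises aminobutyraldehyde, stood at 0.12 ± 0.09. Aldh16a1 (-0.19 ± 0.06, adjusted p = 0.0529) and Aldh3b1 (-0.14 ± 0.05, adjusted p = 0.104) were below NME on every AGR array, and Aldh16a1 passed with quantile normalization and with either filter on dim genes, Aldh3b1 without NME array 2. Aldh3b2, Aldh3b3, Aldh3a1, Aldh1b1 and Aldh8a1 had log2 fold changes between -0.08 and -0.00304. Aldh3a1, Aldh1b1 and Aldh8a1 were dim, and Aldh8a1 had the same value on all 3 AGR arrays, as 294 genes did.

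Among the 8 alcohol dehydrogenase genes, 2 were lower in AGR. Adhfe1 belongs to the iron-dependent branch and couples the oxidation of 4-hydroxybutyrate to the reduction of 2-oxoglutarate. It read 8.73, 8.45 and 8.66 in NME and 7.60, 7.82 and 7.72 in AGR. The lines were clearly apart, and the AGR values came close to the median of all probe sets. It fell by 0.90 ± 0.09 on the log2 scale, 1.86-fold (limma adjusted p = 0.000643).

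The other 7 Adh genes are a block on chromosome 3 in the order Adh7, Adh1, Adh6a, Adh6b, Adh6-ps1, Adh4 and Adh5. Adh1, the ethanol and retinol dehydrogenase of liver, was dim in both lines and fell by 0.37 ± 0.08 (limma adjusted p = 0.0163). That call was lost without NME array 1, NME array 3, AGR array 1 or AGR array 3. Adh7, an epithelial retinol dehydrogenase, read 11.79, 11.71 and 11.72 in NME and 11.20, 11.68 and 11.32 in AGR. All 3 AGR arrays were lower, with array 2 close to NME, and the log2 fold change of -0.34 ± 0.12 did not pass (adjusted p = 0.0918) except without AGR array 2. Adh5, the formaldehyde and nitrosoglutathione dehydrogenase that all cells use, stood at -0.11 ± 0.07. Adh4, Adh6a, Adh6b and Adh6-ps1 were dim in both lines, with log2 fold changes between -0.10 and 0.13, and Adh6-ps1 passed without AGR array 3.

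Enzymes and carriers that act beside these genes were read from 5 lists, each in the same fit, and the share called in each is to be read beside the 24.2% of all genes and the 37.7% of those above the probe set median in a line. In the list of other carbonyl reductases and aldehyde oxidases, 2 of 27 measured genes were higher and 8 lower in AGR (37%), and these 10 calls came down to 5 without NME array 3 and to 6 without NME array 1 or AGR array 3. Cbr1, a carbonyl reductase of quinones and prostaglandins, fell by 0.72 on the log2 scale, Dhrs7 by 0.66 and Cryl1 by 0.59. Cbr4 fell by 0.58 and the quinone reductase Cryz by 0.51, while xanthine dehydrogenase Xdh, dim in both lines, rose by 0.51. Dhrs7 no longer passed without AGR array 3 or without any one of the NME arrays, nor did Xdh without AGR array 3 or without NME array 2 or 3. In the retinoid list, 4 of 36 genes were higher and 4 lower (22.2%). Rdh10, which oxidises retinol to retinaldehyde one step before the retinaldehyde dehydrogenases, rose by 0.89 and the retinoic acid carrier Fabp5 by 0.74. The retinol carrier Rbp4 fell by 0.67 and Tgm2, a retinoic acid target, by 0.50. Of the other Rdh genes on the list, Rdh13 rose by 0.54, Rdh5 fell by 0.49 and the rest did not pass.

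The list of reaction partners in folate, proline, valine, lysine, GABA and sphingolipid metabolism had 6 of 30 genes higher and 7 lower (43.3%), with 25 of the 30 above the probe set median. These 13 calls came down to 6 without NME array 3 or AGR array 3 and to 7 without NME array 1. Abat, the transaminase that makes the succinic semialdehyde which Aldh5a1 oxidises, read 7.63, 7.86 and 7.62 in NME and 10.66, 10.41 and 10.62 in AGR. Every AGR array lay far above NME, 7.27-fold (limma adjusted p = 5.64e-06). Transcripts for both steps from GABA to succinate were thus higher in AGR, with Aldh5a1 up by 0.46 on the log2 scale from dim values in NME. The transcript of Akr7a5, which reduces the same semialdehyde, was lower. Gad1 (-0.15, limma adjusted p = 0.0908) and Gad2 (-0.10, adjusted p = 0.324) of this list, which make GABA, did not pass. Gad2 was dim in both lines. The genes beside Abat on its chromosome were not examined here, and whether these differences belong together was not tested. Oat, which feeds ornithine into the proline pathway, rose by 0.92, and Dbt, a subunit of the branched-chain keto acid dehydrogenase upstream of Aldh6a1, fell by 0.83. Of the other subunits of that complex, Bckdhb rose by 0.20 (limma adjusted p = 0.0162), a call lost without NME array 3 or AGR array 3. Bckdha did not pass (-0.09, adjusted p = 0.166). Of the branched-chain transaminases, Bcat1 read 7.86, 8.51 and 7.83 in AGR and rose by 0.65 from dim values in NME (limma adjusted p = 0.0353). Bcat2 fell by 0.22 (adjusted p = 0.0198).

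Steroid and prostaglandin conversion had 5 of 36 genes higher and 10 lower (41.7%). Hsd17b2, which oxidises estradiol and testosterone, read 10.12, 9.82 and 10.09 in NME and 7.29, 7.06 and 7.09 in AGR. It fell 7.27-fold to dim values with no overlap between the lines (limma adjusted p = 6.74e-06). The prostaglandin carrier Slco2a1 fell by 0.99 on the log2 scale, Hsd17b13, dim in both lines, by 0.82 and the prostaglandin D synthase Hpgds by 0.82, while the prostaglandin receptor Ptger4 rose by 0.49.

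The list of NRF2 targets had 3 of 26 genes higher and 9 lower (46.2%), and 25 of the 26 were above the probe set median, where 37.7% of all genes were called. The glutathione transferases Gsta3, Gstm1 and Gsta4 fell, with log2 fold changes of -2.54 (to dim values), -2.39 and -1.57, and so did the epoxide hydrolase Ephx1 (-1.12) and Nfe2l2, which encodes NRF2 itself (-0.54). Abcc4 (-0.79), Slc7a11 (-0.69), Gclc (-0.65) and Me1 (-0.22) were also lower. The glutathione conjugate exporter Abcc1 rose by 0.98, Blvrb by 0.62 and the heme oxygenase Hmox1 by 0.54. The other 14 genes did not pass. Among them Gclm (0.12), Txnrd1 (0.04), Srxn1 (-0.04) and Gsr (-0.02) were above the probe set median in both lines. Nqo1, a widely used NRF2 target, was dim and did not pass (-0.13, limma adjusted p = 0.206). The median log2 fold change of the 5 lists lay between -0.06 and -0.03, close to the -0.02 of all genes.

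Hepatocyte markers differed far more than the genes of these lists, with a median log2 fold change of -1.21. Of 13 measured, 8 were lower in AGR, among them Alb (log2 fold change -6.36), Serpina1c (-5.50), Ttr (-5.12), Trf (-3.90) and Fgb (-3.03), and Apob was higher (0.84). The mean log2 level of the list was 9.88 to 9.96 on the NME arrays and 7.82 to 7.96 on the AGR arrays. Hnf4a, a transcription factor of hepatocytes and of other epithelia, fell by 1.21, from 13.17 ± 0.02 to 11.96 ± 0.05 (SD, n = 3). Many of the genes described above are also expressed in liver, and the part that this set of markers has in their difference was not tested. Of the mammary epithelial markers 1 of 10 passed, Cdh1, with a log2 fold change of -0.60. For the other cell types, 1 of 8 fibroblast markers (Pdgfra) and 2 of 7 immune markers (Cd68 and Csf1r) were higher, 1 of 6 adipocyte markers (Cidec) was lower and 0 of 6 endothelial markers passed limma's test (also 0 at an unadjusted p under 0.05).

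**Figure D4:**
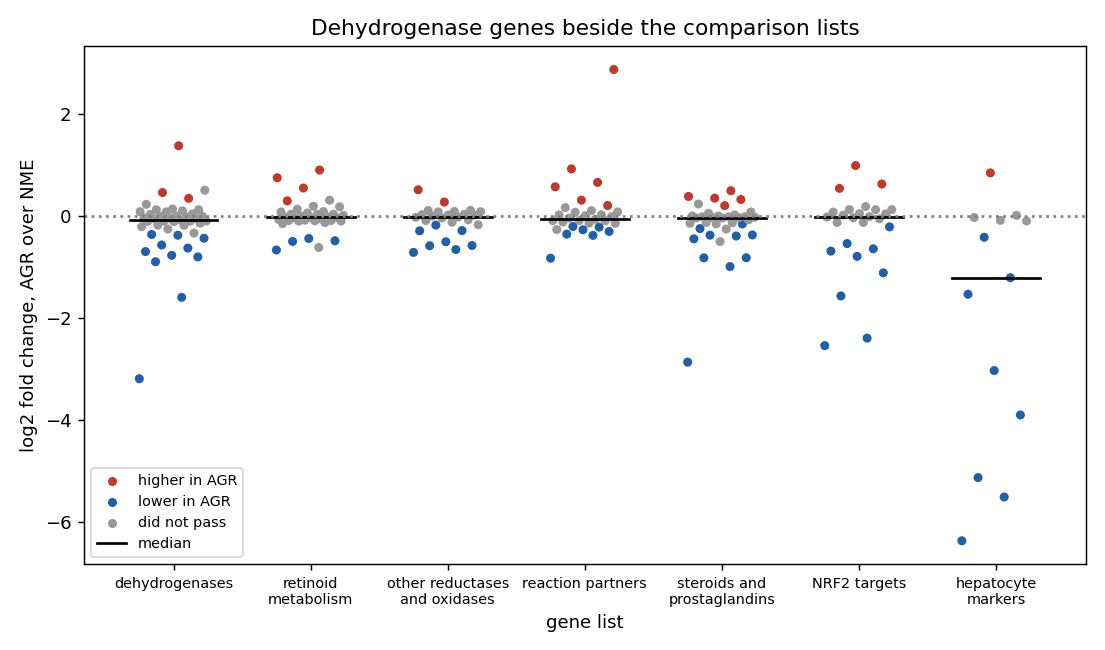
Each point is the log2 fold change of AGR over NME of 1 gene, for the 44 dehydrogenase and reductase genes, the 5 lists of neighbouring pathways and the hepatocyte markers, with a black line at each median and colours for genes that passed the test. The medians of the pathway lists lie near 0, with single genes far from it (Abat at 2.86, Hsd17b2 at -2.86), and the hepatocyte markers spread down to -6.36.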

How the data were processed

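Global gene expression was measured in NME and AGR cells on 6 Affymetrix Mouse Gene 1.0 ST arrays, with the cell line and replicate taken from the sample titles. The design text that came with the series speaks of another number of groups than the labels show. The authors deposited linear array intensities that they had already processed, and the submitters' notes name MAS5 with no version or settings. MAS5 relies on mismatch probes, which this array lacks, so how the values were normalized is unknown. Precision is limited by how few arrays there are.

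From the deposited intensities log2 was taken with no offset. Of 35557 probe sets, 21789 carried a single gene symbol in the platform annotation, 1621 several and 12147 none, and the brightest single-symbol probe set stood for each of 19938 genes. AGR and NME were compared with limma 3.58.1 (lmFit and eBayes) in R 4.3.3, two-sided, with Benjamini-Hochberg adjustment over all genes, and the script was tested on simulated data. The SE is limma's moderated standard error. Members and lists were chosen with earlier results of these data known, and no set test was run. Values per array are given for members that passed with a log2 fold change of at least 0.5 in size and for a few others chosen after their values were seen. From the pathway lists up to 6 passing genes with the largest differences were eligible, with up to 2 of the other direction. Some genes, among them Nfe2l2, Nqo1, Bckdha and Bckdhb, were named outside this rule. Alternatives were quantile normalization, median centring, filters on dim genes, other probe set rules, an offset of 16, eBayes with trend and robust settings, the methods' t-test, a replicate block, a fold change above 2 and leaving out each array. Promoters came from RefSeq (GRCm38.p6). Protein sequences were not used here.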

Additional observations from a re-analysis of the deposited data

How the results depend on the processing

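The 14 members that passed kept their direction under each alternative that gave a value, and of 303 values of these 14 and of Aldh1a1, Adh7 and Aldh16a1, 273 stayed on the same side of the threshold, 20 lost the call, 10 gained it and 0 reversed. A fold change above 2 left 1 member higher and 2 lower, 299 genes higher and 299 lower over all genes, and 0 retinoid, 0 other reductase, 1 reaction partner, 1 steroid and prostaglandin and 4 NRF2 list genes. After Benjamini-Hochberg adjustment the methods' t-test gave 10 members lower and 2 higher, with Akr1a1 gained and Aldh5a1, Adh1 and Akr1b10 lost, and 6 other reductases and 8 reaction partners. A filter at the probe set median removed Akr1c18, Aldh5a1 and Adh1, whose mean over the 6 arrays lies below it. Leaving out each array in turn gave 3 to 4 members higher and 9 to 13 lower, 1755 to 2783 genes higher and 1582 to 2573 lower, and 5 to 9 other reductases (5 without NME 3, 6 without NME 1 or AGR 3), 6 to 13 reaction partners (6 without NME 3 or AGR 3, 7 without NME 1), 7 to 10 retinoid, 12 to 15 steroid and prostaglandin and 9 to 13 NRF2 genes. Hibadh, among the reaction partners, turned from -0.21 to 0.012 with the mean of its probe sets (adjusted p = 0.953). Deviations of arrays with the same number correlated at -0.126, 0.327 and 0.259. Those of arrays with different numbers correlated at -0.467 to 0.358, so the numbers were not taken to pair the arrays. With the replicate number as a block 4 members were higher and 12 lower, with Aldh1a1 and Akr1e1 gained and 0 lost. Except where a value above shows it, the cause of a change was not tested.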
